A study of Mus musculus with 6 samples.

Results

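The tubulin isotypes of the mouse oocyte are the subject here. The 10 genes were taken by symbol after the Ensembl gene IDs of the deposited table had been paired with mouse symbols: the alpha-tubulins Tuba1a, Tuba1b, Tuba1c and Tuba4a, the beta-tubulins Tubb2a, Tubb2b, Tubb3, Tubb4b and Tubb5, and the gamma-tubulin Tubg1. All 10 of the 10 were found among the 28738 genes of the table, and all 10 were among the 17450 genes kept by a filter on low values. RNA was sequenced from fully-grown germinal vesicle (GV) oocytes, the stage before meiosis resumes. There were 3 control and 3 Uba3 conditional knockout (Uba3 cKO) libraries, and about 150 oocytes were pooled for each. Both groups are labelled with the strain C57/Bl6/N;129SvEv7 strain. The sources used here do not give the age of the mice, the Cre driver or the deleted part of Uba3. The Uba3 protein is part of the NEDD8-activating enzyme, which starts neddylation, the attachment of the small protein NEDD8 to cullins and other targets.

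Alpha- and beta-tubulin form the heterodimers from which microtubules are built, and gamma-tubulin sits in ring complexes that start new microtubules. A fully-grown oocyte stores tubulin mRNA and protein for the meiotic spindle, which in the mouse is organised by many microtubule-organising centres without centrioles. The isotypes are encoded by separate genes and differ most in the acidic tail at the carboxyl end, where enzymes add or remove tyrosine and glutamate. The level of tubulin mRNA is itself controlled. When free tubulin is abundant, the protein TTC5 recognises the first amino acids of a nascent alpha- or beta-tubulin chain on the ribosome and, through SCAPER and the CCR4-NOT deadenylase, brings about decay of the mRNA being translated.

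The first 24 coding bases of each gene are shown because this start of the coding sequence encodes the stretch that TTC5 reads, with the first 12 bases (4 codons) in capitals. The sequences are from GENCODE M21 transcripts.
Tuba1a: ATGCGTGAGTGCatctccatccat
Tuba1b: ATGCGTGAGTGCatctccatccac
Tuba1c: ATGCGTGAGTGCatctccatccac
Tuba4a: ATGCGCGAGTGCatttcagtccat
Tubb2a: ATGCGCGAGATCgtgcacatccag
Tubb2b: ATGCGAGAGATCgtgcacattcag
Tubb3: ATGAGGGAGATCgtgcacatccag
Tubb4b: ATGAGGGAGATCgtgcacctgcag
Tubb5: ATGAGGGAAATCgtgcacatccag
Tubg1: ATGCCGAGAGAAatcatcacccta
The capitals were identical in 3 genes, Tuba1a, Tuba1b and Tuba1c, and Tuba4a differed from them at 1 base. Those of Tubb3 and Tubb4b were identical to each other and differed from Tubb5 at 1 base. These base differences within the alpha and within the beta genes leave the encoded amino acids unchanged. The capitals encode Met-Arg-Glu-Cys in every listed alpha gene and Met-Arg-Glu-Ile in every listed beta gene. The gamma-tubulin gene Tubg1 differed from Tuba1c at 8 of the 12 bases and from Tubb5 at 7, and its capitals encode Met-Pro-Arg-Glu.

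The last 60 coding bases, without the stop codon, are shown for the neighbours Tubb2a and Tubb2b. They encode the tail and show where the bases of these genes differ within it. Capitals mark bases that differ between the pair.
Tubb2a: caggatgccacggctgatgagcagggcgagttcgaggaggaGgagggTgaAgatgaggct
Tubb2b: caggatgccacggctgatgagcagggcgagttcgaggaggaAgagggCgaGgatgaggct
Of the 47 coding bases at which the pair differed, 3 lay in these last 60.

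The alpha genes of the Tuba1 cluster on chromosome 15 were nearly the same in their coding sequence. Identity was 98.3% between Tuba1a and Tuba1b, 97.9% between Tuba1b and Tuba1c and 97.1% between Tuba1a and Tuba1c, whereas Tuba4a on chromosome 1 was 84.8% to 85.2% identical to them. The neighbours Tubb2a and Tubb2b on chromosome 13 were 96.5% identical. Tubb3 lies on chromosome 8, Tubb4b on 2, Tubb5 on 17 and Tubg1 on 11, and every other pair of the 5 beta genes was between 81.3% and 84.5%. Stretches of 50 bases were then compared with every annotated transcript of other genes on both strands. Of the 50-base stretches of the Tuba1b transcript 83.1% also occurred in another gene, against 75.5% for Tuba1a, 61.0% for Tuba1c, 55.5% for Tubb4b, 49.6% for Tubb2a and 39.3% for Tubb2b. For Tubb4b the main partner was the pseudogene Tubb4b-ps1. For Tuba4a the share was 48.8%, nearly all of it (47.7%) with Stk16, a kinase gene whose transcript overlaps it, while only 2.39% of its coding stretches were shared. Tubg1 shared 14.1%, chiefly with Tubg2, Tubb5 shared 0.115% and Tubb3 none. The sources used here do not give how reads with several matches were counted. Values of the Tuba1 genes, Tubb2a, Tubb2b and Tubb4b are therefore uncertain to the extent of these shares, and Tubb3 and Tubb5 are the genes this touches least. Whether reads were counted by strand was not given either, so reads of Tuba4a and Stk16 may not have been told apart.

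**Figure D1:**
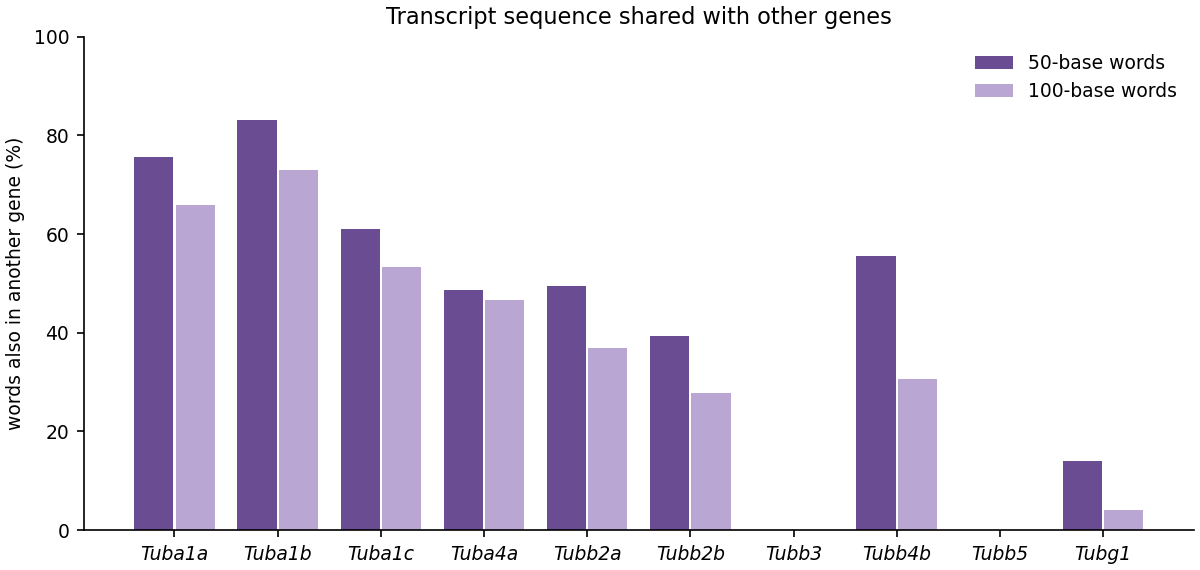
Percentage of 50-base (dark) and 100-base (light) stretches of each gene's longest protein-coding transcript that also occur in an annotated transcript of another gene, on either strand; Tuba1b is highest at 83.1% for 50 bases, and Tubb3 has none.

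Uba3 itself checked the labels. Its log2 values, taken by replicate number, were 11.37, 11.46 and 11.34 for control oocytes. The knockout libraries stood at 10.03, 10.16 and 10.36, all lower. The difference was -1.21 (SE 0.10), with a limma adjusted p of 2.07e-05. Over all kept genes 1421 were called at an adjusted p under 0.05, which is 8.14% of them, with 2.5% called lower and 5.64% called higher. The 3 libraries of one group lay wholly above or below those of the other for 27.9% of kept genes. All 10 oocyte markers examined were kept, with log2 values between 8.21 and 17.17 in every library. Of the 10, 7 had a difference below 0 and 3 above 0, with a median of -0.15. The highest was 0.35 for Zp1, which was not called (limma adjusted p = 0.132). Called lower were 2, Zp2 (-0.30, limma adjusted p = 0.0100) and Bmp15 (-0.25, limma adjusted p = 0.0429). All of these genes were named after their values were seen. The calls of Zp2 and Bmp15 ended under 2 and 11 of the 15 alternatives. The sum of the linear values of the 10 markers (deposited log2 values raised to base 2) was 384757 to 443735 in control and 339008 to 378979 in Uba3 cKO libraries, with no overlap. Values were also above the filter for markers of other ovarian cells, and whether these came from such cells or from the oocyte was not tested. Of 16 theca and stroma markers 6 were called lower, and the sum of their linear values was 3968 to 6094 in control and 2840 to 3566 in Uba3 cKO libraries. For 15 granulosa and cumulus markers, of which 13 were kept, the sum was 21591 to 29803 in control and 19246 to 23970 in Uba3 cKO libraries, with 2 called higher and 1 lower. Of 10 blood and immune markers 9 were kept and 2 called lower, and of 7 endothelial markers 5 were kept and 1 called lower. In pooled samples like these, fewer cells of a type and less RNA per cell cannot be told apart. Nothing in the labels ties the pools to different animals, and every p-value here reflects the spread among pools only, which may be technical.

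Tubb4b, a broadly expressed beta isotype, was by far the most abundant of the tubulin transcripts. To compare genes, levels were divided by transcript length in kilobases. On the log2 scale per kilobase, control oocytes had 14.26 ± 0.18 (SD, n = 3) for Tubb4b and 11.58 ± 0.15 for Tubb5, the next in order among the 10 genes. Tubb2a (11.33 ± 0.16), Tubb3 (11.32 ± 0.19) and Tubb2b (10.87 ± 0.11) followed. By this length the 3 abundant alpha transcripts lay below every listed beta transcript by mean, with 10.68 ± 0.27 for Tuba1b, 10.48 ± 0.12 for Tuba1c and 10.23 ± 0.13 for Tuba4a. Tubg1 (6.97 ± 0.19) and Tuba1a (6.83 ± 0.03) were the lowest of the 10. Neighbours whose control libraries overlapped, so that their order is not beyond the spread, were Tubb5 and Tubb2a, Tubb2a and Tubb3, Tubb2b and Tuba1b, Tuba1b and Tuba1c, and Tubg1 and Tuba1a. In Uba3 cKO oocytes 2 places changed. Tubb2a (11.57 ± 0.17) came before Tubb5 (11.44 ± 0.14), with overlapping libraries, and Tuba4a (10.42 ± 0.13) came before Tuba1c (9.99 ± 0.11), with no overlap. The order between alpha and beta depends on the length used, and it turned when levels were divided by the number of 50-base stretches that no other gene carries. On the log2 scale per 1000 such stretches, control Tubb4b (15.47 ± 0.18) was still first, but Tuba1b (13.29 ± 0.27) came next, above Tubb2a (12.36 ± 0.16). Tuba1c (11.87 ± 0.12) then lay above Tubb2b (11.62 ± 0.11), Tubb5 (11.61 ± 0.15) and Tubb3 (11.36 ± 0.19), and in Uba3 cKO oocytes Tuba4a (11.41 ± 0.13) and Tuba1c (11.38 ± 0.11) overlapped. With 100-base stretches Tuba1b was likewise the next after Tubb4b in both groups.

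**Figure D2:**
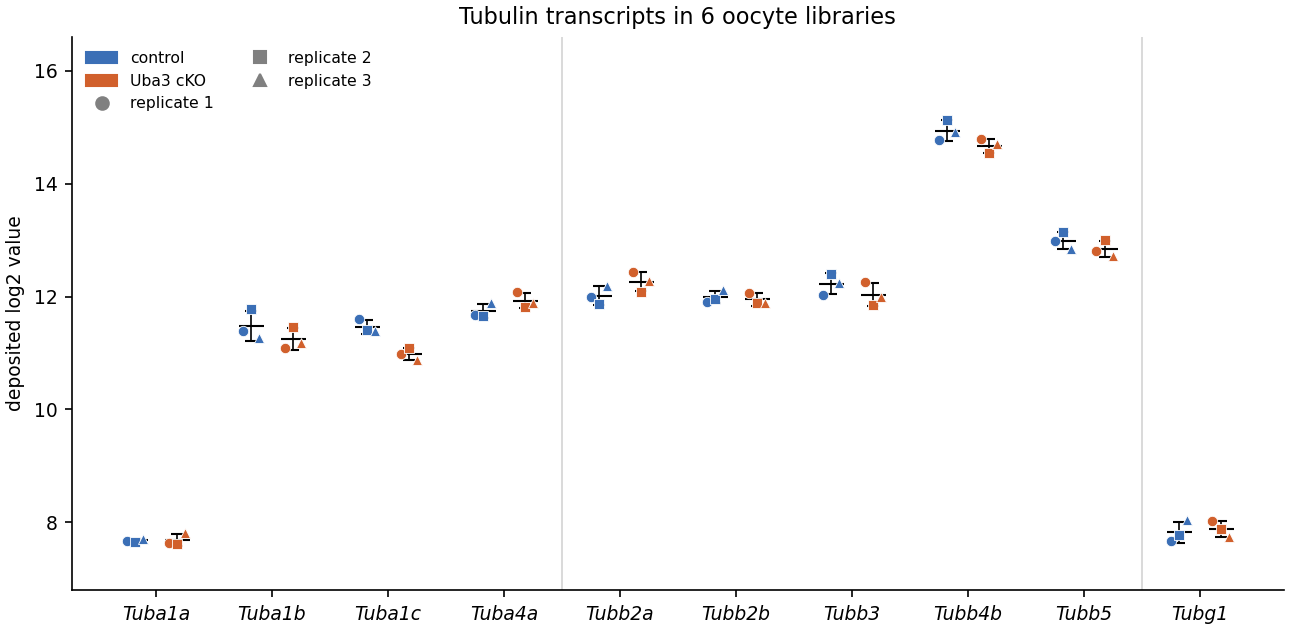
Deposited log2 values of the 10 tubulin genes in each library (control blue, Uba3 cKO orange, replicates by symbol), with the mean and SD of each group in black; grey lines part alpha-, beta- and gamma-tubulins. Values are not divided by length. The Tuba1c libraries are the ones in which the groups do not overlap.

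Among the alpha-tubulins, Tuba1c fell in Uba3 cKO oocytes and the other 3 were not called. Tuba1c (ENSMUSG00000043091), one of the common alpha isotypes, had log2 values of 11.61, 11.40 and 11.38 in control libraries, again by replicate number, against 10.98, 11.08 and 10.87 after the knockout. Every Uba3 cKO library was below every control library. Knockout minus control gave -0.49 in log2 units (SE 0.10, 95% interval -0.70 to -0.27), a 1.40-fold lower level, with a limma adjusted p of 0.00845. Left without Uba3 cKO replicate 3, the difference was -0.43 and was not called (adjusted p = 0.0506).

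Tuba1b, the neighbour of Tuba1c with the most shared sequence, had log2 values of 11.39, 11.78 and 11.27 in control and 11.09, 11.46 and 11.18 in Uba3 cKO libraries. The groups overlapped, since control replicates 1 and 3 lay below Uba3 cKO replicate 2. Its difference of -0.24 (SE 0.13, 95% interval -0.53 to 0.04) did not pass the test (limma adjusted p = 0.296). Tuba4a, whose gene encodes an alpha-tubulin without the final tyrosine, had 11.67, 11.66 and 11.88 in control and 12.08, 11.82 and 11.89 in Uba3 cKO libraries. All 3 knockout values were above those of control replicates 1 and 2, but control replicate 3 lay among them, and the difference of 0.19 (SE 0.10, 95% interval -0.02 to 0.40) was not called (limma adjusted p = 0.279). Tuba1a, known for its high level in developing neurons, was low, with 7.65 to 7.71 in control and 7.62 to 7.82 in Uba3 cKO libraries. Its difference was 0.01 (95% interval -0.20 to 0.22), and the sign turned under quantile normalization (-0.0082), so no direction is given.

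None of the 5 beta-tubulins was called, and 2 of them had an unadjusted p under 0.05. Tubb4b had log2 values of 14.76, 15.13 and 14.92 in control and 14.78, 14.54 and 14.70 in Uba3 cKO libraries. Only the lowest control library, replicate 1, lay within the range of the knockout. The difference was -0.26 (SE 0.09, 95% interval -0.47 to -0.06), with an unadjusted p of 0.0145 and a limma adjusted p of 0.109. Without control replicate 1 the difference was -0.35 and was called (limma adjusted p = 0.027). Tubb2a had 11.995, 11.86 and 12.19 in control and 12.43, 12.09 and 12.27 in Uba3 cKO libraries, so its values leaned the other way. Its difference was 0.25 (SE 0.11, 95% interval 0.01 to 0.48), with an unadjusted p of 0.0403 and a limma adjusted p of 0.193.

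The remaining beta genes differed less. Tubb3, a beta isotype used as a neuronal marker, had 12.03, 12.40 and 12.24 in control and 12.25, 11.85 and 11.99 in Uba3 cKO libraries, with a difference of -0.19 (95% interval -0.44 to 0.06). Tubb5, the most widely expressed beta isotype, had 12.99, 13.14 and 12.84 in control and 12.80, 13.00 and 12.73 in Uba3 cKO libraries, with a difference of -0.15 (95% interval -0.36 to 0.07). Tubb2b ranged from 11.91 to 12.12 in control and from 11.88 to 12.07 in Uba3 cKO libraries, and its difference was -0.05 (95% interval -0.25 to 0.16). Their limma adjusted p were 0.357, 0.410 and 0.815.

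Tubg1, the gamma-tubulin gene of the list, had log2 values of 7.66, 7.77 and 8.04 in control and 8.02, 7.89 and 7.74 in Uba3 cKO libraries. The knockout libraries lay within the range of the controls. The difference was 0.06 (SE 0.12, 95% interval -0.19 to 0.31; limma adjusted p = 0.809).

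In all, 1 of the 10 genes was called, and it was lower, where 2.5% of all kept genes were called lower. Likewise 1 of the 10 had groups that did not overlap, and the same lack of overlap held for 27.9% of all kept genes. The median difference of the 10 was -0.10 against -0.0061 over all kept genes, with 6 of the 10 below 0. Within the knockout group the genes did not vary alike. Tuba4a, Tubb2a, Tubb2b, Tubb3, Tubb4b and Tubg1 were highest in replicate 1, whereas Tuba1b, Tuba1c and Tubb5 were highest in replicate 2.

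**Figure D3:**
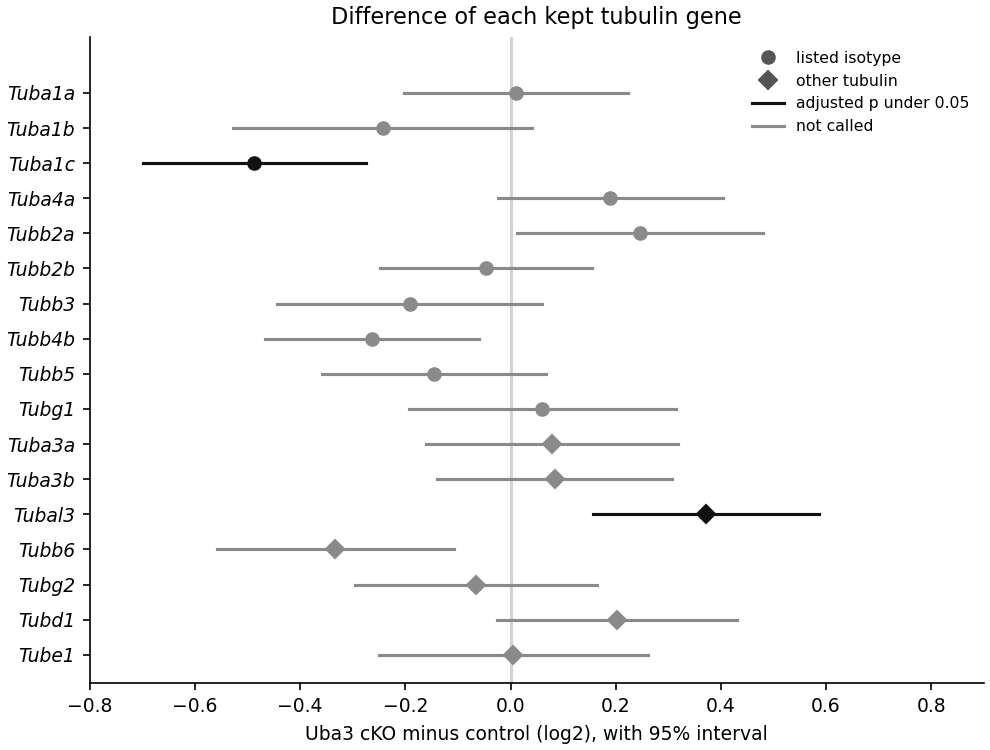
Difference in log2 value (knockout minus control) for the 17 kept tubulin genes, with the 95% interval from limma; circles are the 10 listed isotypes, diamonds 7 other tubulin genes, and black marks genes called at an adjusted p under 0.05. Tuba1c (-0.49) and Tubal3 (0.37) are the called genes.

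The isotype make-up of each pool was compared next, as the share of each gene in the summed linear values per kilobase of the 4 alpha or 5 beta genes of a library. Tuba1c made up 35.9%, 29.5% and 32.0% of the alpha pool in the control libraries, against 26.2%, 26.7% and 25.3% after the knockout. The control mean was 32.4% ± 3.2 (SD, n = 3). The knockout mean was 26.1% ± 0.74 (SD, n = 3), and the groups did not overlap. Tuba4a held 27.4% ± 3.7 in control and 35.3% ± 3.9 in Uba3 cKO oocytes, with overlap, Tuba1b 37.5% ± 5.3 and 35.7% ± 3.7, and Tuba1a 2.58% ± 0.18 and 2.95% ± 0.36. In the beta pool Tubb4b held 64.4%, 68.2% and 65.3% in control and 62.2%, 61.0% and 63.5% in Uba3 cKO libraries, again with no overlap. Tubb2a was at 9.39%, 7.04% and 9.76% in control and 12.1%, 11.1% and 11.7% in Uba3 cKO libraries, so that every knockout library was above every control. The other 3 beta shares overlapped, with 8.62% and 8.56% for Tubb3, 10.4% and 10.7% for Tubb5, and 6.31% and 6.90% for Tubb2b, control first. For Tuba1c, Tubb2a and Tubb4b p was 0.1 by exact permutation (two-sided), which is the least that groups of 3 and 3 can reach, and 0.3 when adjusted over the 9 shares. No share therefore passed the test.

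**Figure D4:**
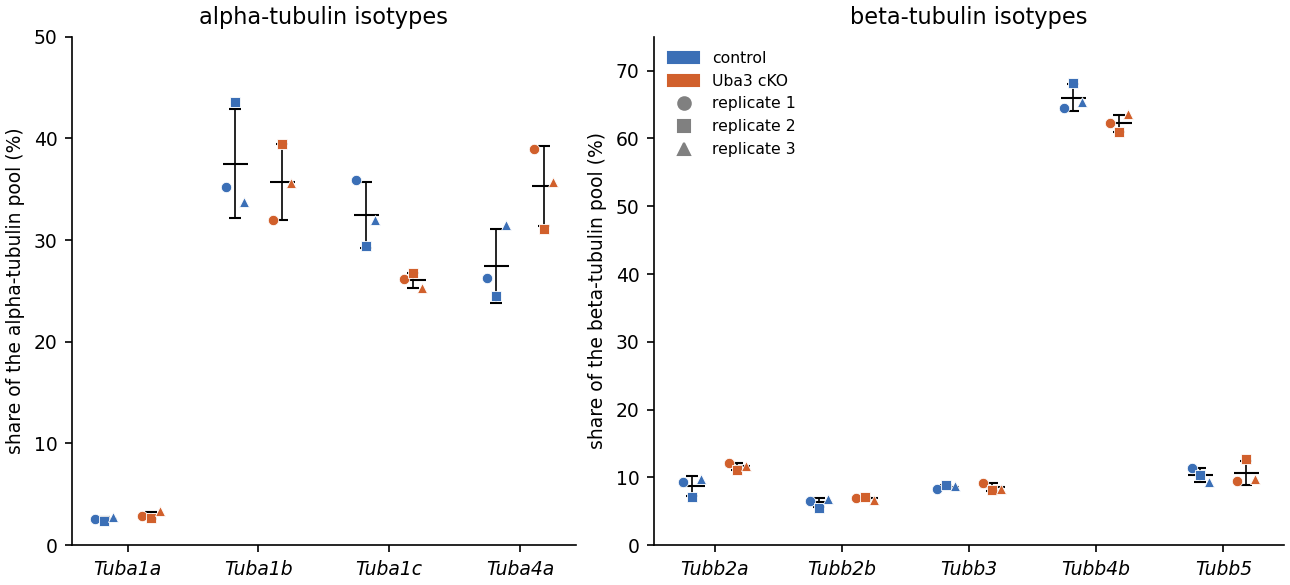
Share of each isotype in the alpha (left) and beta (right) tubulin pool of each library, in percent of the summed linear values per kilobase, with the mean and SD of each group in black. Tuba1c and Tubb4b are lower and Tubb2a is higher in all 3 Uba3 cKO libraries (orange) than in all 3 control libraries (blue).

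These shares rest on the length each gene is divided by. When only stretches of 50 bases that no other gene carries were counted as length, Tuba1b held 60.02% ± 5.3 (SD, n = 3) of the alpha pool in control oocytes and Tuba1c 22.6% ± 3.1. In Uba3 cKO oocytes Tuba1c then held 18.6% ± 0.77, the groups overlapped, and the exact permutation p was 0.2. With unshared stretches of 100 bases Tuba1c held 26.1% ± 3.2 in control and 21.3% ± 0.67 in Uba3 cKO oocytes, without overlap (exact permutation p = 0.1). With the unshared stretches of 50 bases, Tubb2a (8.89% and 11.9%, control first) and Tubb4b (76.1% and 72.4%) still did not overlap between the groups.

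The pools as wholes were set beside each other in the same way. The alpha pool per kilobase was 12.11 ± 0.07 (SD, n = 3) on the log2 scale in control and 11.93 ± 0.07 in Uba3 cKO oocytes, a difference of -0.18 with no overlap. For the beta pool it was 14.86 ± 0.14 and 14.68 ± 0.11, a difference of -0.18 with overlap. These pools hold the listed genes only and leave out other tubulin genes, among them the abundant beta gene Tubb6. Within the listed genes, beta-tubulin transcripts stood 6.76 ± 0.52 times above alpha in control and 6.75 ± 0.69 times in Uba3 cKO oocytes (SD, n = 3). This ratio was 3.59 and 3.68 when unshared 50-base stretches served as the length. The alpha to beta ratio thus did not move beyond its spread (exact permutation p = 0.8). Ratios between genes restate the same values. A gene with a difference below 0, set against one with a difference above 0, parts the groups more easily. Of the genes in these ratios only Tuba1c was called. The log2 ratio of Tuba1c to Tuba4a was -0.27 ± 0.22 in control and -0.95 ± 0.19 in Uba3 cKO oocytes, and that of Tubb4b to Tubb2a was 2.92 ± 0.30 and 2.41 ± 0.05, both without overlap. The ratios of Tubb2a to Tubb2b (0.02 ± 0.10 and 0.31 ± 0.09) and of Tuba1c to Tuba1a (3.78 ± 0.13 and 3.29 ± 0.21) were also without overlap. The ratios of Tuba1c to Tuba1b (-0.02 ± 0.32 and -0.26 ± 0.14) and of Tubb4b to Tubb5 (1.95 ± 0.16 and 1.83 ± 0.25) overlapped. Over the 9 ratios and pools compared, the exact permutation p was 0.1 at the least and 0.18 after adjustment, so none passed the test.

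Other tubulin genes were few in number and mixed in direction. Of 10 listed, 9 were in the table and 7 were kept, of which 1 was called higher and none lower, where 5.64% of all kept genes were called higher. Tubal3, a divergent alpha-tubulin-like gene, rose from 10.44, 10.68 and 10.41 in control to 10.90, 10.83 and 10.92 in Uba3 cKO libraries. The groups did not overlap, and the difference was 0.37 (SE 0.10, limma adjusted p = 0.0366). Without control replicate 3 it was 0.32 and not called (adjusted p = 0.166), and the call also ended without control replicate 1 or any 1 of the Uba3 cKO replicates. It also ended with no filter on low values (adjusted p = 0.0556). Tubb6, a beta isotype named here after its values were seen, had 12.61, 12.98 and 12.82 in control and 12.59, 12.33 and 12.49 in Uba3 cKO libraries. Its groups lay just apart, and its difference of -0.33 (SE 0.11) was not called (limma adjusted p = 0.0694), though it was under quantile normalization (adjusted p = 0.0382), with array weights (0.0427) and without control replicate 1 (0.0154). Per kilobase its control level of 11.99 on the log2 scale was above that of Tubb5. The second gamma gene, Tubg2, stood at 9.26 per kilobase in control, above Tubg1 at 6.97, and its difference was -0.07. The delta and epsilon genes Tubd1 and Tube1, which serve centriolar microtubules, differed by 0.20 and 0.0055. Tuba3a and Tuba3b differed by 0.08 each, and the filter dropped Tuba8 and Tubb4a.

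Genes that make the tubulin dimer were mostly not called. Of the 14 subunits of the chaperonin CCT and of prefoldin, which fold new tubulin chains, none was called by limma, 2 had an unadjusted p under 0.05, and the median difference was -0.08. Highest by mean deposited value, not divided by length, were Cct5 (-0.11) and Cct3 (-0.05), with Cct2 close to Cct3 (12.88 and 12.90 in control). Among the 7 folding cofactors, which assemble the heterodimer, 1 was called and was lower, where 2.5% of all kept genes were. Tbcc, the cofactor that acts in the last step, fell from 8.66, 8.93 and 9.03 in control to 8.57, 8.38 and 8.47 in Uba3 cKO libraries, a difference of -0.40 (SE 0.12, limma adjusted p = 0.0463). That call ended when any library but control replicate 1 was left out (adjusted p up to 0.205), and with no filter on low values, quantile normalization or no intensity trend (adjusted p up to 0.0572). All 7 cofactors had a difference below 0, as had 9032 of the 17450 kept genes, and their median was -0.11. None of the 4 genes of tubulin mRNA autoregulation was called by limma, and none had an unadjusted p under 0.05, with a median difference of 0.06. Cnot1, the scaffold of the deadenylase, differed by 0.02 and Scaper by 0.10. Ttc5, named after its value was seen, differed by 0.10 (95% interval -0.13 to 0.34).

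Enzymes that modify tubulin included the largest rise around the tubulin genes. Of 25 listed, 22 were kept, 2 were called higher and none lower, where 5.64% of all kept genes were called higher. Ttll7, a polyglutamylase that prefers beta-tubulin, rose from 8.16, 8.01 and 7.89 in control to 8.77, 8.69 and 8.93 in Uba3 cKO libraries. The difference was 0.77 (SE 0.11), a 1.71-fold rise, with a limma adjusted p of 0.000804. Agbl2, a carboxypeptidase of the family that trims tubulin tails, rose from 6.34, 6.26 and 6.39 to 6.95, 6.89 and 6.98. Its difference was 0.61 (SE 0.09, limma adjusted p = 0.000856). Both were called under each of the 15 alternatives run. Of the 22, 5 had an unadjusted limma p under 0.05, and the median was -0.01.

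Among microtubule nucleation genes the called share was near that of all kept genes. Of the 17 genes of the gamma-tubulin ring and of augmin, which recruits the ring to existing microtubules, 1 was called higher and 1 lower, where 8.14% of all kept genes were called, and both were augmin subunits. Haus1 rose from 9.45, 9.85 and 9.83 to 10.22, 10.46 and 10.25, a difference of 0.60 (SE 0.12, limma adjusted p = 0.00799). Haus4 fell from 11.69, 12.03 and 11.71 to 11.10, 11.35 and 11.10, a difference of -0.63 (SE 0.11, limma adjusted p = 0.00396). Neither pair of groups overlapped, and both genes were called under each of the 15 alternatives run. The median of the 17 was -0.06. None of the 8 spindle pole and assembly genes was called by limma (3 had an unadjusted p under 0.05), with 0.12 for Pcnt, the pericentrin scaffold of the organising centres, and -0.23 for Ckap5, a microtubule polymerase. Their median was 0.15. None of the 24 kept genes of microtubule binding and severing was called by limma (2 had an unadjusted p under 0.05), with 0.11 for Spast, the severing enzyme spastin, and -0.05 for Mapre1, which tracks plus ends. Their median was 0.03.

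**Figure D5:**
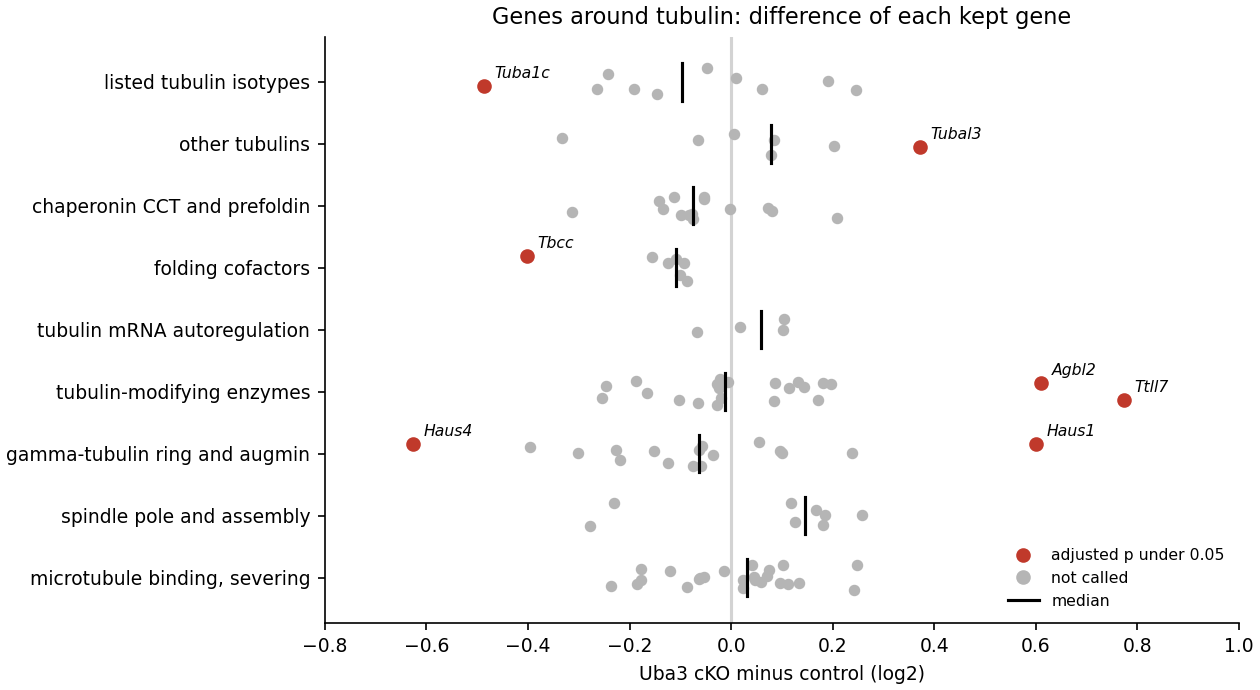
Difference in log2 value (knockout minus control) for each kept gene of the tubulin list and of 8 lists of related genes; red points are called at an adjusted p under 0.05 and named, grey points are not, and the black bar is the median of the list. The 7 called genes lie between -0.63 (Haus4) and 0.77 (Ttll7).

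Theca and stroma markers were lower alongside Tuba1c in the knockout. The summed markers were 3968, 5200 and 6094 in the control libraries by replicate number, against 3472, 3566 and 2840 after the knockout. Of the 16 markers all 16 had a difference below 0, with a median of -0.47. The oocyte markers given above were also lower in sum, though 3 of the 10 had a difference above 0. Bmp15, Gdf9 and Zp2 weigh most in that sum, with control means of 17.05, 16.85 and 16.32 on the log2 scale. The part of these markers' cells in the result for Tuba1c was not tested.

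Across the 6 libraries, the pattern of Tuba1c was most like that of Bcl2l13 (Pearson r = 0.993), Atrx (0.992) and Fancm (0.989) among 11178 named genes with a mean log2 value of 6 or more. Each of the 3 was also called lower, with differences of -0.39, -0.61 and -0.36 on the log2 scale. The 6 points fall into the 2 groups, and 54 genes had an r above 0.95, so the likeness is a description of these libraries only.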

How the data were processed

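Per the labels' protocols, RNA of oocyte pools was extracted with a PicoPure kit, and libraries from a TruSeq RNA kit were sequenced on a NovaSeq. Tools listed in the submitters' processing notes are STAR, fastp, DESeq2 and featureCounts, with the build GRCm39 and without versions or settings. The deposited table holds log2 values that the authors had normalized between libraries. Its transform is not named, no counts were used, and library depth is unknown. If the transform shrinks low values, differences of low genes are understated.

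Symbols were taken from GENCODE M21 (96.2% of IDs matched), which belongs to an earlier build, so no coordinates are given. Its longest protein-coding transcript gave each gene's length and sequence. Coding sequences were aligned with Biopython 1.88. Genes were kept at a linear value of 10 or more in at least 3 of 6 libraries. Groups, taken from the sample titles, entered a fit by limma 3.58.1 under R 4.3.3 (intensity trend, no pseudocount), with Benjamini-Hochberg adjustment over all 17450 kept genes, and a call is an adjusted p under 0.05. The script was tested on simulated data. Shares and ratios were compared with exact two-sided permutation tests over 3 against 3 libraries. Differences are Uba3 cKO minus control. Alternatives covered the pseudocount, filter, scaling, variance model, sample weights, replicate block, leaving out each library, and the length used for shares and levels, of which unshared sequence was added after seeing the data.

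The 10 genes, the lists and the tests were chosen with earlier results of these data known. Named are the 10 genes, up to 4 called members of each list (or the 2 with the highest level where none was called), and the 3 genes most like each called isotype.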

Additional observations from a re-analysis of the deposited data

How the results depend on the processing

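The call of Tuba1c held under 14 of the 15 alternatives, with differences from -0.54 to -0.42, and ended only without Uba3 cKO replicate 3. Leaving out each library gave 0 to 2 called isotypes, the second being Tubb4b without control replicate 1. Over all kept genes it gave 618 to 1637 calls against 1421 (omitting control replicates 2 or 3 left 780 or 618 calls, and omitting knockout replicates 1 or 3 left 681 or 709), and array weights gave 2298. Isotypes whose shares did not overlap between the groups numbered 3, and 3 to 6 when a library was left out, where smaller groups overlap less easily. For 3 genes the sign changed, all with differences near 0. Tuba1a was -0.0082 under quantile normalization, -0.024 with array weights and -0.054 to 0.047 when a library was left out. Tubb2b lay between -0.11 and 0.014, and Tubg1 between -0.019 and 0.17, when a library was left out. Replicate numbers did not pair the samples: deviations of same-numbered libraries correlated at -0.09, -0.20 and -0.05, and 0 of 3 knockout libraries correlated best with the control of its own number. With the replicate number as a block, 1258 genes were called, and Tuba1c remained the called isotype (1 of 10), while Tubal3 and Tbcc were not called (adjusted p = 0.0568 and 0.0536). Depth is unknown, so small differences of Tuba1a and Tubg1 cannot be bounded by counting error.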
